A study of Mus musculus with 5 samples.

Results

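The keratin genes are the members described here, taken as every protein-coding gene of the deposited table whose symbol is Krt followed by a number and at most 1 letter, which leaves out the Krtap genes of keratin-associated proteins. There were 53 such genes among 55357 in the table. Of these, 29 had enough reads to be tested, 11 had a few reads and 13 had none in any library. RNA came from stem cells of the hair follicle, taken from the back skin of mice at postnatal day 75 and gated for CD34, high α6 integrin and EpCAM and against Sca1. The 3 PRC1 i2KO libraries came from K15-CrePR1:Ring1a-/-, Ring1bflox/flox mice, in which a keratin 15 promoter drives a Cre that RU-486 switches on. The 2 Control libraries came from Ring1a-/-, Ring1bflox/flox mice without that Cre. By these labels both groups were Ring1a-/- and carried floxed Ring1b alleles, and both received 1% RU-486 on the skin for 10 days from day 50. Skin was taken 15 days after treatment ended. The libraries are called replicates 1, 2 and 3 of PRC1 i2KO and replicates 1 and 3 of Control, after their titles.

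Keratins are the intermediate filament proteins of epithelial cells. A filament is built from pairs of a type I chain and a type II chain, and an epithelium is known by the pairs it makes: Krt5 with Krt14 in basal cells, Krt1 with Krt10 in the layers above them, Krt6 with Krt16 or Krt17 in the companion layer and in stressed epidermis, and Krt8 with Krt18 in simple epithelia. The stem cells of the follicle's bulge are known for Krt15 beside the basal pair. Nearly all type I genes lie in a cluster on chromosome 11 and the type II genes in a cluster on chromosome 15. PRC1, a Polycomb complex, ubiquitinates histone H2A through either Ring1a or Ring1b, which the genes Ring1 and Rnf2 encode.

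Totals ran from 9675996 to 21102727 estimated reads in PRC1 i2KO and were 8270419 and 32463173 in Control. Rnf2 averaged 50.9 ± 3.29 TPM in PRC1 i2KO (SD, n = 3) and 73.0 ± 11.5 TPM in Control (SD, n = 2), a log2 fold change of -0.37 (edgeR adjusted p = 0.0363). Ring1, which the genotype labels give as deleted in both groups, was read in every library, at 50.3 ± 5.82 TPM in PRC1 i2KO (SD, n = 3) and 63.0 ± 21.9 TPM in Control (SD, n = 2), and did not pass (edgeR adjusted p = 0.36). Reads over a whole gene do not check the loss of an exon. Of the 15665 genes tested, 18.8% rose and 15.1% fell. Of 12 bulge markers that are not keratins, 9 fell, 3 did not pass and none rose in PRC1 i2KO, which goes against the bulge label of that group. Cd34, on whose protein the cells were gated, averaged 20.2 ± 14.8 CPM in PRC1 i2KO (SD, n = 3) and 1623 ± 105.1 CPM in Control (SD, n = 2). The labels do not say that libraries came from separate animals, so each p-value is set against a spread between libraries that may be technical.

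The tested bulge keratins fell, both keratins grouped with the upper follicle rose, and 5 of 7 tested suprabasal keratins rose. Among those 5, Krt9 had 0 control reads and so passed the filter through PRC1 i2KO alone. The calls of Krt1, Krt78 and Krt9 were each lost in some fits with 1 library left out. Krt79 of the upper follicle rose the most among the keratins with reads in Control (log2 fold change 6.02), and Krt24, listed here with the bulge, fell the most (-6.34). Compartments were assigned from textbook knowledge of where each keratin is made. The basal pair split, with Krt5 lower and Krt14 not passing the test. The companion and inducible group split as well, with the type II genes Krt6a, Krt6b and Krt75 lower and the type I gene Krt16 higher. Krt17, a type I partner of Krt6 in the companion layer too, is counted here with the upper follicle and also rose. In bulk samples fewer cells of a type and less RNA per cell cannot be told apart, and this holds for every value below.

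In all, 13 keratin genes rose, 9 fell and 7 did not pass among the 29 tested (edgeR's quasi-likelihood test, Benjamini-Hochberg adjusted p under 0.05 over 15665 genes). Of all tested genes, 33.9% were called. A gene read in 1 group alone passes the filter on low counts through that group, so the share of keratins called is a description. Their median log2 fold change was 1.02, also with genes of 0 control reads set over a floor of 3 control reads, against -0.01 over all tested genes. The groups did not overlap for 23 of the 29 keratins, where 59.5% of all tested genes had libraries that did not overlap. Fewer keratins, and also a smaller share of all tested genes, were called without Control replicate 3, the deepest library, which left 1 control.

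**Figure D1:**
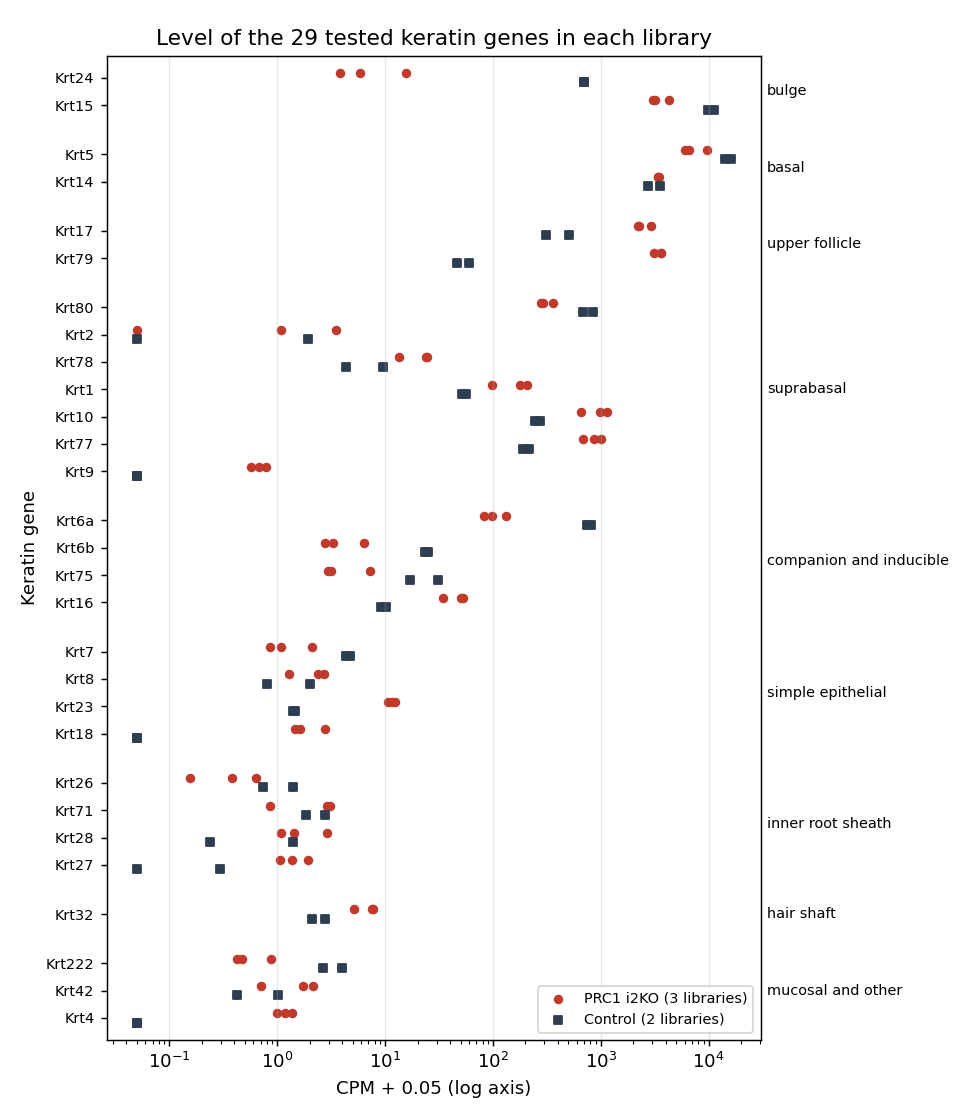
Level of each tested keratin gene in each library, as CPM plus 0.05 on a log axis, with PRC1 i2KO libraries as circles and Control libraries as squares, grouped by compartment. The PRC1 i2KO libraries of Krt79 lie between 3087 and 3631 CPM, far right of its Control libraries at 59.8 and 46.6 CPM, and Krt24 shows the widest gap in the other direction.

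**Figure D2:**
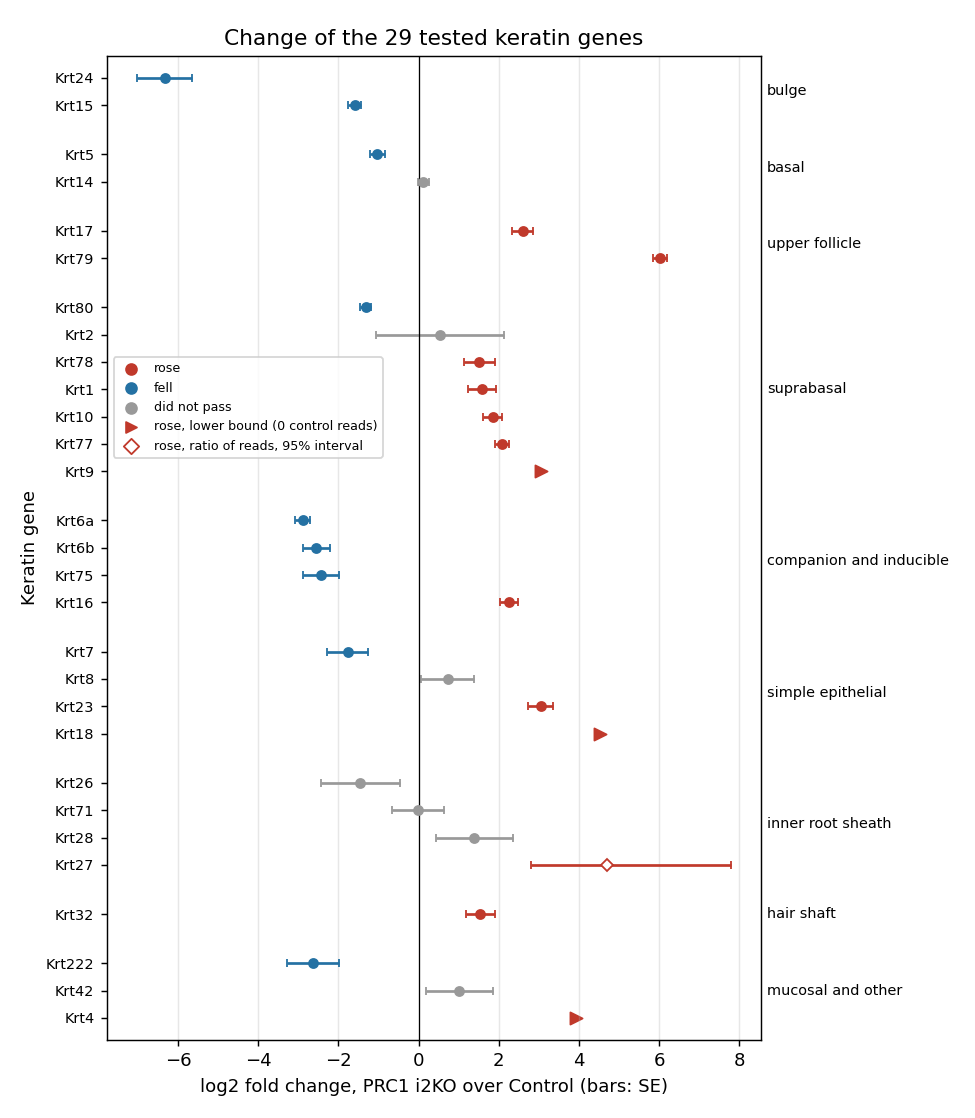
The log2 fold change of each tested keratin gene, PRC1 i2KO over Control, with its SE as a bar. Triangles, labelled lower bounds, set genes with 0 control reads over a floor of 3 control reads, without counting error in PRC1 i2KO. The diamond is Krt27 by its ratio of summed reads with a 95% counting interval. Bulge keratins lie left of 0, both upper follicle keratins lie right of it, and the basal, companion and simple epithelial groups are split.

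The bulge group holds the type I genes Krt15, Krt19 and Krt24. Krt24 (ENSMUSG00000020913) had 3.73, 5.78 and 15.7 CPM in PRC1 i2KO and 702.5 and 703.5 CPM in Control. All 3 PRC1 i2KO libraries were far below both controls, and replicate 3 was the highest of them. The fitted log2 fold change was -6.34 (SE 0.69, edgeR adjusted p = 0.00565), and -7.14 without PRC1 i2KO replicate 3. Krt15 (ENSMUSG00000054146), the marker of bulge and basal cells whose promoter drives the Cre, had 3076, 3147 and 4286 CPM in PRC1 i2KO and 9893 and 11134 CPM in Control. It was lower in every PRC1 i2KO library, again least so in replicate 3, and its log2 fold change was -1.59 (SE 0.16, edgeR adjusted p = 7.35e-05). Krt19, which marks simple epithelia and some follicle stem cells, was too low to test, with 0, 2 and 1 reads in PRC1 i2KO and 12 and 6 reads in Control. Per depth its controls were far apart, at 1.48 CPM in replicate 1 and 0.187 CPM in replicate 3. The highest PRC1 i2KO library, replicate 2, had 0.094 CPM, so much of the difference rested on Control replicate 1. Its ratio of summed reads per depth, PRC1 i2KO over Control, was 0.134, with an exact 95% binomial interval of 0.0254 to 0.461 that covers counting error only.

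The upper follicle group holds Krt79 and Krt17. Krt79 (ENSMUSG00000061397), a type II keratin of the infundibulum and sebaceous duct, had 3603, 3631 and 3087 CPM in PRC1 i2KO and 59.8 and 46.6 CPM in Control. Every PRC1 i2KO library was above both controls, with replicate 3 the lowest of them (log2 fold change 6.02, SE 0.19, edgeR adjusted p = 8.41e-08). Krt17 (ENSMUSG00000035557), a type I keratin of the outer root sheath and the upper follicle that is also induced by stress, had 2262, 2219 and 2909 CPM in PRC1 i2KO and 508.6 and 308.4 CPM in Control. It too was higher in every PRC1 i2KO library, although the controls differed from each other (log2 fold change 2.59, SE 0.25, edgeR adjusted p = 0.000298). Of 8 upper follicle markers that are not keratins, 7 rose and 1 did not pass, and their summed level was 10827 to 11772 TPM in PRC1 i2KO and 543.6 to 630.02 TPM in Control. Most of the PRC1 i2KO sum was Defb6, at a mean of 5211 TPM (62.8 TPM in Control), and Cst6, at 3691 TPM (93.0 TPM in Control). All 9 sebaceous gland markers rose, at a summed 2397 to 2850 TPM in PRC1 i2KO and 308.05 to 343.95 TPM in Control. Most of the PRC1 i2KO sum was Scd1, at a mean of 1755 TPM (79.0 TPM in Control). The part of such cells in the keratin values was not tested.

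The sequence before the start site is shown for the keratin with control reads that rose the most, the keratin that fell the most and the suprabasal keratin most abundant in PRC1 i2KO. Each line gives 250 bases of the gene's strand, 5′ to 3′, ending at the base before the start (RefSeq, GRCm38.p6, a build other than the authors' mm39). Capitals mark a motif.
Krt79, chr15:101940325-101940574, minus strand: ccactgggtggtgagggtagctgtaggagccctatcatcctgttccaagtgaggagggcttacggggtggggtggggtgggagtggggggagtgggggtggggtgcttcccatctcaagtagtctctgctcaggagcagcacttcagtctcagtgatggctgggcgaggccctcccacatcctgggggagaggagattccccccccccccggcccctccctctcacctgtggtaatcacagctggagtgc
Krt24, chr11:99285263-99285512, minus strand: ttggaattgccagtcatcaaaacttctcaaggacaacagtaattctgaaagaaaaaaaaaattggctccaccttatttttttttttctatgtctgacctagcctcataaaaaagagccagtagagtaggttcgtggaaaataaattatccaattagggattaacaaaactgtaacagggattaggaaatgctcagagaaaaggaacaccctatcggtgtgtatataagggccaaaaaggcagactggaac
Krt10, chr11:99389365-99389614, minus strand: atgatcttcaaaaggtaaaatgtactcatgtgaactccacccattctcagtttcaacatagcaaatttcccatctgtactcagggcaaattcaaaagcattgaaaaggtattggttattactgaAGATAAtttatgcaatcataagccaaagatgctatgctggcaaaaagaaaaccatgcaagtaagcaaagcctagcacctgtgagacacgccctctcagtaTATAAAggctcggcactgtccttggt
Both strands were searched for TATAAA, the core promoter box, and for motifs of factors known in skin. These were GCCNNNGGC for AP-2, CTTTGA for LEF/TCF, TGANTCA for AP-1, AGATAA for the GATA family and AACNNGTT for Grainyhead. None of the motifs contains another. The windows of Krt79 and Krt24 held no match, which says only that these letters are not in them. That of Krt10 held AGATAA, starting 126 bases before the start, and TATAAA, starting 26 bases before it. Windows were on hand for 36 of the 53 keratin genes, 37 windows in all. TATAAA stood in 17 of the 37 windows, where 12.4% of all 32851 windows held it, and in 6 of the 20 windows of tested keratins. AGATAA stood in 9 keratin windows (9.99% of all windows) and CTTTGA in 9 (13.8% of all). GCCNNNGGC stood in 5 (13.7% of all), TGANTCA in 2 (6.75% of all) and AACNNGTT in 1 (3.64% of all).

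The basal pair did not move together. Krt5 (ENSMUSG00000061527), the type II chain of basal cells, had 6046, 6600.2 and 9547 CPM in PRC1 i2KO and 14045 and 16039.6 CPM in Control. Each PRC1 i2KO library was below both controls (log2 fold change -1.02, SE 0.19, edgeR adjusted p = 0.00345). Krt14 (ENSMUSG00000045545), its type I partner, had 3375, 3378 and 3442 CPM in PRC1 i2KO and 2714 and 3538 CPM in Control. The groups overlapped, and its log2 fold change was 0.12 (SE 0.13, edgeR adjusted p = 0.534), or -0.06 without Control replicate 1 and -0.03 on log2(TPM + 1). Per length, the TPM of Krt14 over that of Krt5 was 0.754, 0.691 and 0.491 in PRC1 i2KO and 0.26 and 0.297 in Control. That ratio was higher in every PRC1 i2KO library than in either control. Of the 31-base words of Krt14, 29.2% also occur in other genes, 18.2% in Krt16, so its level and this ratio carry some uncertainty. The exact permutation p was 0.2, two-sided, which is the smallest that 3 libraries against 2 can give.

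Most suprabasal keratins were higher. Krt10 (ENSMUSG00000019761), the type I keratin of differentiating epidermis, had 655.6, 974.6 and 1145 CPM in PRC1 i2KO and 271.8 and 243.5 CPM in Control (log2 fold change 1.85, SE 0.24, edgeR adjusted p = 0.0014). Krt1 (ENSMUSG00000046834), its type II partner, had 98.4, 206.9 and 176.7 CPM in PRC1 i2KO and 56.2 and 51.8 CPM in Control. For both genes the libraries did not overlap and PRC1 i2KO replicate 1 was the lowest of its group. Krt1 rose by 1.58 on the log2 scale (SE 0.34, edgeR adjusted p = 0.0213), a call that was lost without Control replicate 1 (adjusted p = 0.109), without Control replicate 3 (0.128) or with PRC1 i2KO replicate 3 left out (0.147). Per length, Krt10 over Krt1 was 8.02, 5.55 and 7.76 in PRC1 i2KO and 5.55 and 5.72 in Control, and this ratio overlapped between groups (exact permutation p = 0.6, two-sided).

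Krt77 (ENSMUSG00000067594), a suprabasal type II keratin, had 689.6, 864.8 and 1007 CPM in PRC1 i2KO and 214.7 and 189.5 CPM in Control (log2 fold change 2.08, SE 0.17, edgeR adjusted p = 2.25e-05). Krt78 (ENSMUSG00000050463), another type II keratin of this group, had 13.4, 24.2 and 23.9 CPM in PRC1 i2KO and 4.31 and 9.42 CPM in Control. Its libraries did not overlap, but the controls were far apart: it rose by 1.52 on the log2 scale (SE 0.39, edgeR adjusted p = 0.0186), by 2.26 without Control replicate 3, and missed the threshold without Control replicate 1 (adjusted p = 0.0507) and when PRC1 i2KO replicate 2 was left out (0.0581). Krt9, the keratin of palm and sole epidermis, had 0.622, 0.517 and 0.737 CPM in PRC1 i2KO and 0 reads in both controls. Against a floor of 3 reads summed over the Control group (0.0745 CPM) it was at least 8.34-fold higher (edgeR adjusted p = 0.0279), a call lost without Control replicate 1 (adjusted p = 0.0842) or Control replicate 3 (0.189).

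Krt80 (ENSMUSG00000037185), a type II keratin found in many epithelia and grouped here with the suprabasal genes, went the other way. It had 289.6, 277.7 and 357.4 CPM in PRC1 i2KO and 685.4 and 853.2 CPM in Control (log2 fold change -1.32, SE 0.14, edgeR adjusted p = 9.61e-05). Its counts were fractional in all 5 libraries, although 0.603% of its 31-base words also occur in other genes. Krt2, a keratin of the upper epidermis, had 0, 1.03 and 3.47 CPM in PRC1 i2KO and 0 and 1.9 CPM in Control. Its groups overlapped and the log2 fold change was 0.53 (adjusted p = 0.835 by edgeR, not passed; negative without Control replicate 1 or with PRC1 i2KO replicate 3 left out). Krt76 had no reads. Of 11 suprabasal markers that are not keratins, 9 rose, 1 fell and 1 did not pass, and their summed level was 1793 to 2315 TPM in PRC1 i2KO and 1769 to 1841 TPM in Control. Most of that sum was 2 genes. Sbsn, which rose, averaged 1032 TPM in PRC1 i2KO and 773 TPM in Control, and Calml3, which fell, averaged 326 and 856 TPM.

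In the companion layer and inducible group the type II and type I genes parted. Krt6a (ENSMUSG00000058354), a type II keratin of the companion layer that wounding induces in epidermis, had 82.7, 96.98 and 132.2 CPM in PRC1 i2KO and 737.7 and 807.1 CPM in Control (log2 fold change -2.89, SE 0.19, edgeR adjusted p = 2.35e-05). Krt6b (ENSMUSG00000023041), its close copy, had 3.22, 2.74 and 6.38 CPM in PRC1 i2KO and 25.2 and 23.5 CPM in Control (log2 fold change -2.55, SE 0.34, edgeR adjusted p = 0.000441). Both were lower in every PRC1 i2KO library. The pair is hard to tell apart by reads: 49.3% of the 31-base words in Krt6a transcripts (GENCODE vM21) also occur in Krt6b, and their counts were fractional in all 5 libraries. Their sum, which does not depend on that split, averaged 108.1 ± 27.3 CPM in PRC1 i2KO (SD, n = 3) and 796.7 ± 47.9 CPM in Control (SD, n = 2), 7.37-fold lower.

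Krt75 (ENSMUSG00000022986), the type II keratin that marks the companion layer, had 3.11, 2.92 and 7.21 CPM in PRC1 i2KO and 17.0 and 30.7 CPM in Control (log2 fold change -2.43, SE 0.44, edgeR adjusted p = 0.00515). Krt16 (ENSMUSG00000053797), a type I partner of the Krt6 chains, had 51.0, 53.1 and 34.1 CPM in PRC1 i2KO and 10.2 and 9.14 CPM in Control. It was higher in every PRC1 i2KO library, with replicate 3 the lowest (log2 fold change 2.26, SE 0.22, edgeR adjusted p = 6.55e-05). Of the 31-base words of Krt16, 51.9% also occur in transcripts of other genes, most often the predicted gene Gm11597, so its level is uncertain. Per length, Krt16 over Krt6a was 0.947, 0.842 and 0.395 in PRC1 i2KO and 0.0212 and 0.0174 in Control, and Krt17 over Krt6a was 42.4, 35.5 and 34.1 in PRC1 i2KO and 1.07 and 0.592 in Control. Neither ratio overlapped between groups (exact permutation p = 0.2 for each, two-sided).

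Simple epithelial keratins were low in both groups. Krt23 (ENSMUSG00000006777), a type I keratin, had 10.7, 11.6 and 12.3 CPM in PRC1 i2KO and 1.35 and 1.4 CPM in Control (log2 fold change 3.05, SE 0.31, edgeR adjusted p = 7.6e-05). Krt18 (ENSMUSG00000023043), a type I chain, had 2.69, 1.41 and 1.58 CPM in PRC1 i2KO and 0 reads in both controls, at least 23.1-fold higher than the floor of 3 reads over the Control group (edgeR adjusted p = 0.00347). Krt8, its type II partner, had 1.24, 2.35 and 2.69 CPM in PRC1 i2KO and 1.97 and 0.746 CPM in Control. The groups overlapped, and the log2 fold change was 0.73 (SE 0.67, adjusted p = 0.446 by edgeR, not passed), or 1.5 without Control replicate 1 and 0.11 without Control replicate 3. Of its 31-base words, 32.2% also occur in the pseudogene Krt8-ps. Krt7 (ENSMUSG00000023039), a type II chain, had 1.04, 0.799 and 2.05 CPM in PRC1 i2KO and 4.68 and 4.29 CPM in Control. It was lower in every PRC1 i2KO library (log2 fold change -1.77, SE 0.52, edgeR adjusted p = 0.0255), but the call was lost without either control (adjusted p = 0.0895 and 0.106) or without PRC1 i2KO replicate 1 (0.071) or replicate 2 (0.0796). Of 7 Merkel cell markers, which include Krt8 and Krt18, 3 were tested, of which Krt18 rose and Krt8 and Piezo2 did not pass. Piezo2 had 93 reads over PRC1 i2KO and 111 over Control. Krt20, Isl1 and Sox2 had no reads, and Atoh1 had 1 read over PRC1 i2KO and 5 over Control.

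Keratins of the inner root sheath and, except Krt32, of the hair shaft were low or not read. Krt27, a type I chain of the inner root sheath, had 1.87, 1.32 and 1.0 CPM in PRC1 i2KO and 0.246 and 0 CPM in Control. Over 2 control reads, the ratio of summed reads per depth was 26.2 (exact 95% binomial interval 6.97 to 221.1), and the call (edgeR adjusted p = 0.044) was lost without Control replicate 3 (adjusted p = 0.219), PRC1 i2KO replicate 1 (0.0888) or PRC1 i2KO replicate 2 (0.0717). Krt71, a type II chain of this sheath, had 3.01, 0.799 and 2.84 CPM in PRC1 i2KO and 2.71 and 1.8 CPM in Control, and the type I chain Krt28 had 1.04, 2.82 and 1.37 CPM in PRC1 i2KO and 1.35 and 0.187 CPM in Control. Both overlapped between groups, and neither they nor Krt26, also of the sheath, passed (edgeR adjusted p from 0.293 to 0.985). Krt32 (ENSMUSG00000046095), a type I hair keratin, had 5.08, 7.43 and 7.74 CPM in PRC1 i2KO and 2.71 and 2.05 CPM in Control. It rose (log2 fold change 1.54, SE 0.37, edgeR adjusted p = 0.01; 0.0856 without Control replicate 3). It was the sole hair shaft keratin of 15 with enough reads to test. Among the others Krt83 had 0, 10 and 10 reads and Krt35 had 2, 15 and 1 reads in PRC1 i2KO, with none in Control. The exact 95% binomial lower limits of their ratios of summed reads per depth were 3.98 and 3.55. Krt83 thus overlapped between groups, and most reads of Krt35 came from PRC1 i2KO replicate 2. Krt87 had 0 reads in PRC1 i2KO and 1 and 6 reads in Control, with an exact 95% binomial upper limit of 0.56 for that ratio. These limits and the interval of Krt27 cover counting error only, not the spread between libraries. Krt33a, Krt31 and Krt84 had 7 reads each over PRC1 i2KO, against 0, 4 and 2 over Control, and 8 hair keratins had none. A level of 0 reads allows up to 0.0601 CPM in PRC1 i2KO and 0.0745 CPM in Control, by counting error alone.

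Of the remaining keratins, Krt4, a type II keratin of mucosal epithelia, had 1.14, 1.32 and 0.948 CPM in PRC1 i2KO and 0 reads in both controls, at least 15.3-fold higher (edgeR adjusted p = 0.00855; 0.0719 without Control replicate 3). Krt13, its type I partner in mucosa, had 9, 1 and 4 reads in PRC1 i2KO and 0 and 3 reads in Control, and was not tested. Krt222, a short type I relative, had 0.829, 0.376 and 0.421 CPM in PRC1 i2KO and 3.94 and 2.61 CPM in Control. It fell (log2 fold change -2.63, SE 0.65, edgeR adjusted p = 0.0118), which was not called without Control replicate 1 (adjusted p = 0.0847) or Control replicate 3 (0.0508). Krt42, a type I keratin, had 2.07, 0.658 and 1.68 CPM in PRC1 i2KO and 0.369 and 0.964 CPM in Control, which overlap (edgeR adjusted p = 0.39). Krt90 had 2, 0 and 6 reads in PRC1 i2KO and 1 and 130 reads in Control, so that its level rested on Control replicate 3. Krt12 and Krt25 had at most 7 reads in any library, and Krt88 had none.

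TPM, which is scaled to gene length, lets the levels of different keratins be added. Keratins made up 1.85%, 1.94% and 2.47% of all TPM in PRC1 i2KO and 3.13% and 3.57% in Control, lower in every PRC1 i2KO library. Of the keratin total, the bulge genes took 20.1%, 18.7% and 21.8% in PRC1 i2KO and 43.9% and 43.6% in Control. The upper follicle genes took 29.6%, 28.4% and 24.4% in PRC1 i2KO and 2.26% and 1.23% in Control. Bulge shares were close to each other within a group, upper follicle shares less so, with the 2 controls apart, and both were far apart between groups. The basal pair took 44.2% ± 1.11 in PRC1 i2KO (SD, n = 3) and 49.7% ± 1.09 in Control (SD, n = 2), a smaller difference in share. Within it Krt14 took 17.2% ± 1.94 of the total in PRC1 i2KO and 10.8% ± 1.02 in Control. The keratin total under these shares averaged 20880 TPM in PRC1 i2KO and 33480 TPM in Control. Krt14 itself averaged 3543 TPM in PRC1 i2KO and 3639 TPM in Control, so its higher share reflects the smaller total. Suprabasal genes took 7.3% ± 1.04 in PRC1 i2KO and 2.74% ± 0.108 in Control, and the companion and inducible group 0.647% ± 0.0465 in PRC1 i2KO and 2.05% ± 0.0563 in Control (SD, n = 3 and n = 2). The direction of that last share depends on where Krt17 is counted, since Krt17 alone took 13.5% ± 0.438 in PRC1 i2KO and 1.6% ± 0.689 in Control. None of these shares overlapped between groups, and each had an exact permutation p of 0.2, two-sided, the smallest possible here.

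**Figure D3:**
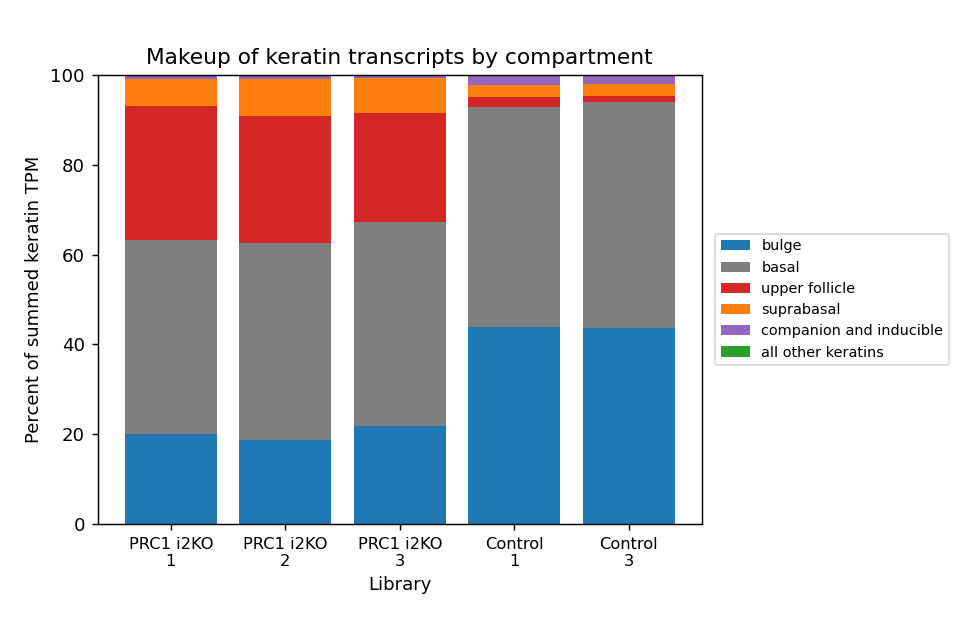
Makeup of keratin transcripts in each library, as the percent of summed keratin TPM in each compartment, with the 3 PRC1 i2KO libraries left of the 2 Control libraries. The upper follicle segment takes 24.4% to 29.6% in PRC1 i2KO and at most 2.26% in Control, while the bulge segment takes at most 21.8% in PRC1 i2KO and at least 43.6% in Control.

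By mean TPM, the order in PRC1 i2KO was Krt5, Krt15, Krt14, Krt79 and Krt17, and in Control it was Krt15, Krt5, Krt14, Krt24 and Krt6a. Krt79 averaged 2847 ± 200.1 TPM and Krt17 2824 ± 506 TPM in PRC1 i2KO (SD, n = 3). Within these libraries Krt17 over Krt79 was 0.864, 0.846 and 1.3, so their order differed from library to library. In Control (SD, n = 2) Krt15 averaged 13903 ± 1312 TPM and Krt5 13000.2 ± 1242 TPM. Within libraries Krt15 over Krt5 was 1.07 in both controls and 0.813, 0.718 and 0.714 in PRC1 i2KO. Krt24 held rank 15 in PRC1 i2KO and rank 4 in Control. The 4 most abundant keratins of each library held 79.2%, 77.9% and 81.0% of keratin TPM in PRC1 i2KO and 92.8% and 94.0% in Control. The summed TPM of type I over type II genes was 1.26, 1.18 and 1.21 in PRC1 i2KO and 1.32 in both controls. That ratio was lower in every PRC1 i2KO library by a small amount, 1.22 ± 0.0395 in PRC1 i2KO (SD, n = 3) against 1.32 in Control.

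Along the chromosomes, genes that changed in the same direction stood side by side in the type II cluster. In the gene order of GENCODE vM21 (GRCm38), the neighbours Krt75, Krt6b, Krt6a and Krt5 on chromosome 15 all fell. Farther along, Krt1, Krt77, Krt4, Krt79 and Krt78 all rose, with Krt76, which had no reads, among them. Between these runs stood Krt71 and Krt2, which did not pass, and Krt72 and Krt73, which had no reads. Krt80 and Krt7 fell at the end nearest Krt75, and Krt18, the cluster's type I gene, rose at the opposite end. The type I cluster on chromosome 11 was more mixed. Krt222 and Krt24 stood next to each other and fell, Krt16 and Krt17 stood next to each other and rose, and Krt15 fell with Krt19 beside it untested. This order is a description, with no test, and several genes of a compartment are neighbours.

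**Figure D4:**
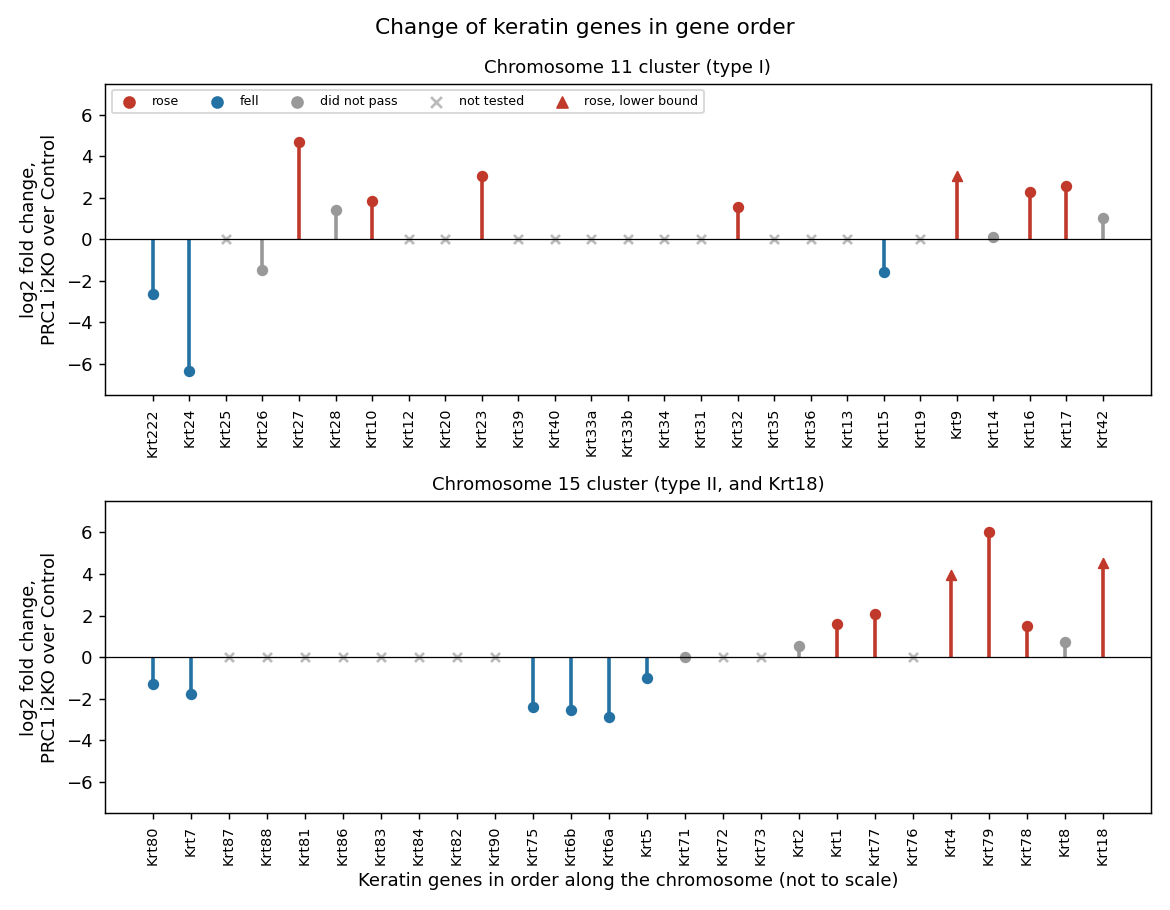
The log2 fold change of keratin genes, PRC1 i2KO over Control, in their order along chromosome 11 (27 type I genes) and chromosome 15 (25 type II genes and Krt18), not to scale. Crosses are untested genes, and Krt27 is drawn at its ratio of summed reads. Triangles, labelled lower bounds, set genes with 0 control reads over a floor of 3 control reads, without counting error in PRC1 i2KO. On chromosome 15 the run Krt75, Krt6b, Krt6a and Krt5 lies below 0 and the run from Krt1 to Krt78 lies above it.

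Genes that work with keratins changed in both directions. The 24 genes listed here are mostly filament and desmosome partners but take in keratinocyte genes that are not, such as Krtdap. Of these 24, 23 were tested, of which 9 rose, 3 fell and 11 did not pass (median log2 fold change 0.28). Over all tested genes 18.8% rose and 15.1% fell. Dsp, which ties keratin to desmosomes, averaged 3765 ± 277.1 CPM in PRC1 i2KO (SD, n = 3) and 6819 ± 868.9 CPM in Control (SD, n = 2; log2 fold change -0.86, SE 0.13, edgeR adjusted p = 0.00078). Dst, which ties keratin to hemidesmosomes, fell by 1.28 on the log2 scale (SE 0.14, edgeR adjusted p = 0.000129). Pkp1, a desmosome plakophilin, averaged 977.6 ± 5.65 CPM in PRC1 i2KO and 449.7 ± 23.5 CPM in Control (log2 fold change 1.12, SE 0.1, edgeR adjusted p = 3.99e-05). Krtdap, a secreted protein of differentiating keratinocytes that is counted among the suprabasal markers too, rose by 1.9 on the log2 scale (SE 0.21, edgeR adjusted p = 0.000112).

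Of 24 transcription factors known to act on keratin or hair genes, 8 rose, 8 fell and 8 did not pass (median log2 fold change -0.28). Grhl3, a Grainyhead factor of the epidermal barrier, averaged 31.9 ± 7.65 CPM in PRC1 i2KO (SD, n = 3) and 2.04 ± 0.947 CPM in Control (SD, n = 2; log2 fold change 4.14, SE 0.36, edgeR adjusted p = 4.52e-05). Grhl1 of the same family rose by 2.12 (SE 0.12, edgeR adjusted p = 2.43e-06) and Cux1 by 2.48 (SE 0.17, adjusted p = 8.88e-06). Grhl2, the third Grainyhead gene listed, fell by 0.33 (SE 0.11, edgeR adjusted p = 0.0427). The AP-2 factors parted too, as Tfap2b fell by 1.46 on the log2 scale (SE 0.13, edgeR adjusted p = 2.73e-05), Tfap2c rose by 3.29 (SE 0.25, adjusted p = 7.35e-05) and Tfap2a did not pass (adjusted p = 0.44). Of 17 genes of other intermediate filaments, 10 were tested, of which 2 rose, 1 fell and 7 did not pass. Lmnb1 and Lmnb2, which encode the B-type lamins of the nucleus, rose by 2.13 and 0.6 on the log2 scale (edgeR adjusted p = 2.58e-05 and 0.00757), and Iffo2 fell by 2.13 (adjusted p = 1.34e-05).

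Markers of cells outside the sort gate differed in direction from gene to gene. Immune markers summed to 99.96 to 151.5 TPM in PRC1 i2KO and 31.99 to 41.6 TPM in Control, with Lyz2 at 0 throughout. In this list 1 of 3 tested genes rose, Cd74 (log2 fold change 1.98, edgeR adjusted p = 6.31e-05), which held most of the sum at 117.5 TPM in PRC1 i2KO and 32.8 TPM in Control. Ptprc and Cd207 overlapped between groups (edgeR adjusted p = 0.974 and 0.841). Melanocyte markers summed to 39.7 to 41.3 TPM in PRC1 i2KO and 77.5 to 86.7 TPM in Control, with Dct higher and Mitf lower (edgeR adjusted p = 5.66e-05 and 1.14e-06). Most of that sum in Control was Mitf, at 16.6 TPM in PRC1 i2KO and 76.3 TPM in Control, while Tyr, Tyrp1, Dct, Mlana and Pmel each had a higher mean TPM in PRC1 i2KO. Fibroblast markers summed to 11.3 to 14.7 TPM in PRC1 i2KO and 26.5 to 37.4 TPM in Control, with 1 of 4 tested higher and 3 lower, and endothelial markers summed to 0.25 to 4.55 TPM in PRC1 i2KO and 0.63 to 1.03 TPM in Control, which overlap. Of 4 tested inner root sheath markers that are not keratins, 2 rose, Cdsn and Tchh (edgeR adjusted p = 0.0207 and 0.00531). Of 7 genes listed for the hair matrix, 4 rose: Lef1, Foxn1, Mki67 and Shh, the last at 140 reads over PRC1 i2KO and 1 over Control. Mki67 is a gene of dividing cells in general and does not mark the matrix. The other genes of that list were lower: Hoxc13 fell (log2 fold change -0.51), and Dlx3 (-1.5) and Msx2 (-0.63) did not pass. The part of such cells in the keratin values was not tested.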

How the data were processed

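Per the labels' protocols, RNA of 50000 sorted cells was purified and 50 ng went into polyadenylate-selected libraries. The authors deposited expected counts per gene, some of them fractional, and a TPM column for each library, a per-length unit without depth. Tools listed in the submitters' processing notes, without roles, are RSEM 1.3.3, STAR 2.7.9a and DESeq2 1.38.2, beside the build mm39. The sources used here give neither annotation nor strandedness, so overlapping and near-identical genes are uncertain. Expected counts were rounded and fitted with edgeR 4.0.16 in R 4.3.3 (filterByExpr with a minimum count of 10, TMM, robust quasi-likelihood F test on genotype, all 5 libraries), and the fit was tested on simulated data. CPM uses the same scaling, and the SE is the log2 fold change divided by the square root of F. Shares and ratios of TPM were compared by exact permutation of libraries. Libraries of a group differed by more than sampling noise (chi-square over degrees of freedom 10.1 to 41.8). Alternatives were DESeq2 1.42.0, limma 3.58.1 on log2(TPM + 1) and log2(TPM + 0.1), other filters and scaling, a term for the replicate number, and each library left out.

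The keratin genes, their compartments, the other gene lists and the tests were chosen with earlier results of these data known. All tested keratins are named; from each other list, up to 4 called genes with the smallest adjusted p were eligible to be named. Named outside this rule, with their values seen, were Cd34 as a gate marker, Grhl2, Tfap2a and Tfap2c as relatives of named factors, and single genes of the immune, melanocyte, Merkel cell, hair matrix and suprabasal lists. Krt88 was added to a compartment after its values were seen. Promoter windows came from RefSeq tables of GRCm38.p6, used for sequence only.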

Additional observations from a re-analysis of the deposited data

How the results depend on the processing

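Of the 22 keratin calls, 13 held under each of the 13 alternatives in which the gene could be tested: Krt6a, Krt6b, Krt10, Krt15, Krt16, Krt17, Krt18, Krt23, Krt24, Krt75, Krt77, Krt79 and Krt80. The other 9 were lost under at least 1 alternative. Krt18 among the 13, and Krt4 and Krt9 among the 9, had 0 control reads and passed the filter through PRC1 i2KO alone. With 1 PRC1 i2KO library left out, 10 to 12 keratins rose, where all libraries gave 13, and 8 to 9 fell, where all gave 9. Those fits called 25.7% to 39.4% of all tested genes, where all libraries gave 33.9%. Leaving out either control left 1 control, and fewer keratins and a smaller share of all genes were called. DESeq2 called the same 13 and the same 9, and 36.2% of all genes. With the replicate number as a block, 11 rose and 7 fell, all among those calls, and 28.2% of all genes were called. Groups share only 2 numbers, whose correlations of deviations were 0.102 and 0.166, and the labels do not say that they pair samples. Krt5 was not called on unfiltered log2(TPM + 1). The TPM scales moved the median of all genes by -0.132 to -0.154 (log2), and no called keratin changed direction. Directions turned for 3 keratins, none of them called. Krt14 was at -0.027 under each of the 3 TPM settings and between -0.059 and 0.32 with 1 library left out. Krt71 was at 0.012 with library totals, at 0.41 with the replicate block and between -0.31 and 0.41 with 1 library left out. Krt2 ranged over -0.87 to 7.5 with 1 library left out, the highest without Control replicate 3, when the remaining control has 0 reads. With CPM in place of TPM, which weights long transcripts more, the difference in share of keratin transcripts, PRC1 i2KO minus Control, was -9.29 percentage points for basal genes (-5.44 on TPM), -19.7 for bulge genes (-23.6), -1.90 for the companion and inducible group (-1.41) and 5.92 for suprabasal genes (4.56). The difference in the type I to type II ratio was -0.041 on CPM and -0.11 on TPM.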

Other observations

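Krt74, a keratin gene typed as a transcribed unitary pseudogene in the deposited table and so not among the members, was left out of all counts. Without a filter on low counts, 10 keratins fell, of which 9 were among the calls above, and 25.6% of all genes in that fit were called.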
